A study of Mus musculus with 6 samples.

Results

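The genes described here encode enzymes and membrane proteins of the lysosome and were taken from a list of 34 symbols, all of which were found among the 20649 genes of a single matrix of unique molecular identifier (UMI) counts. The matrix came from CD45 positive cells of CT26 tumors, a mouse colon carcinoma line grown under the skin of BALB/c mice. Tumors of 3 mice had been injected with exoASO-STAT6, exosomes that carry an antisense oligonucleotide against Stat6, and tumors of 3 mice with exoASO-Scramble, exosomes that carry an oligonucleotide of scrambled sequence. All mice had received 3 injections into the tumor, one every other day, and tumors were taken 24 h after the last. In the study the exosomes came from a human HEK293 cell line that was engineered to carry the protein PTGFRN, and the cells profiled were those of the host and the tumor that bound a CD45 selection kit. The 9235 barcodes carry 6 different suffixes, numbered 3 to 8, which could not be tied to the labelled tumors. Each suffix was taken as 1 library of unknown treatment, and exoASO-STAT6 was not compared with exoASO-Scramble. Values below are UMIs of a gene per 10000 UMIs of all genes, summed over the barcodes of a class, with 95% exact Poisson intervals for levels and 95% exact binomial intervals for ratios. These intervals cover counting error only, and the values of the libraries are given beside them. With a 3′ count, 1 UMI stands for 1 captured transcript, so that levels of different genes were compared without scaling by length.

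Lysosomes are acidic compartments that degrade proteins, sugars and lipids delivered by phagocytosis, endocytosis and autophagy, and exosomes that a cell takes up can end there. A proton pump acidifies the lumen, cathepsins and glycosidases cut the cargo, heavily glycosylated proteins such as LAMP1 line the membrane, and transfer proteins move sterols and lipids out. Macrophages are known for high lysosomal content, dendritic cells for restrained proteolysis that spares peptides for presentation, and cytotoxic lymphocytes for secretory lysosomes that store granule proteins. The transcription factor TFEB, itself on the list, binds a short palindrome known as the CLEAR element in promoters of lysosomal genes.

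RefSeq promoters of the GRCm38.p6 build, from 250 bases before to 50 bases after the gene start, were found for 28 of the 34 genes, 33 promoters in all. The inner letters of that element, CACGTG, which read the same on both strands, were present in 11 of the 33 promoters (33.3%), each of another gene, and in 7.15% of all 32851 promoters. The longer TCACGTGA, also a palindrome, contains the former and was present in 5 of the 33 promoters (15.2%) and in 0.974% of all. The palindrome of 10 letters that adds a G before and a C after these was present in 0 of the 33 and in 0.326% of all. The stretches around TCACGTGA in the 5 genes are shown because they hold these 8 letters, with each match in capitals, 5′ to 3′ on the strand of the gene and ending no later than the base before its start.
Ctsa: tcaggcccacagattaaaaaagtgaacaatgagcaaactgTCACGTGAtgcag
Ctsd: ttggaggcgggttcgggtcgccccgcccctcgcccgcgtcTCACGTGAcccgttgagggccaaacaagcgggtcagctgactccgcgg
Gla: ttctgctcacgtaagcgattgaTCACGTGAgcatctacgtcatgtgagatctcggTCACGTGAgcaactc
Mcoln1: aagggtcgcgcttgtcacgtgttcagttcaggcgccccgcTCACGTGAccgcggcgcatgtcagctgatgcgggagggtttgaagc
Atp6v1a: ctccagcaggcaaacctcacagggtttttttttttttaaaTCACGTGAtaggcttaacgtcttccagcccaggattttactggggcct
They lie at chr2:164833720-164833772 on the plus strand (Ctsa), chr7:142387879-142387966 on the minus strand (Ctsd), chrX:134601186-134601255 on the minus strand (Gla), chr8:3500433-3500518 on the plus strand (Mcoln1) and chr16:44139344-44139431 on the minus strand (Atp6v1a). The match begins 13, 99, 228, 46 and 132 bases before the gene start, in the same order, and Gla has 2 matches, the second 195 bases before the start. A match describes these letters only, and binding was not measured. Whether these 5 genes shared a direction depended on which of the classes described below were compared. In C1q-high against early monocyte barcodes, the ratios were 1.26 for Ctsa and 1.12 for Ctsd. They were 0.716, 0.947 and 0.931 for Gla, Mcoln1 and Atp6v1a, but Mcoln1 was above 1 in 3 of 6 libraries and Atp6v1a in 4 of 6. In neutrophil against early monocyte barcodes Mcoln1 was at 0.999 and the others above 1. Over all barcodes, all 5 were above 1 in Mmp12-positive and in Cd163-positive against C1q-high barcodes. The same held for C1q-high against lymphocyte and pDC against dendritic barcodes. All 5 were below 1 over all barcodes in dendritic against early monocyte barcodes. Libraries were divided for some genes. In Cd163-positive against C1q-high barcodes, Ctsa and Mcoln1 were above 1 in 2 of 5 libraries, Gla in 3, Ctsd in 4 and Atp6v1a in 5. In pDC against dendritic barcodes Mcoln1 was above 1 in 1 of 3 libraries and Atp6v1a in 2 of 3. In dendritic against early monocyte barcodes Mcoln1 was above 1 in 1 of 3.

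Each barcode was put into the first class whose rule it met, and none of the 34 genes was part of a rule. Barcodes with at least 3 UMIs of 10 lymphocyte genes came first. They were called lymphocyte (592 barcodes) where Csf1r and Adgre1 were at 0 and the C1q genes below 5 per 10000, and were otherwise set apart as mixed lymphocyte-myeloid (1756). The following classes were pDC, for plasmacytoid dendritic cell (Siglech at least 2 UMIs, 143 barcodes), neutrophil (S100a9 at least 5 UMIs, 693), Cd163-positive (at least 2 per 10000, 331), Mmp12-positive (at least 5 per 10000, 754) and C1q-high (C1qa, C1qb and C1qc at least 60 per 10000 together, 1775). Then came dendritic (Flt3 at least 1 UMI, 146), early monocyte (Csf1r with Vcan or Hp, 1178) and Ly6c2 (Csf1r with at least 2 UMIs of Ly6c2, 458), and 1409 barcodes met no rule. Markers outside the rules were in keeping with the lymphocyte label and in part with the pDC label. Prf1, the perforin gene of cytotoxic lymphocytes, was at 12.5 per 10000 in lymphocyte barcodes and at most 0.209 in the other 8 named classes, and Klk1 was at 11.4 in pDC barcodes and at most 0.210 in the others.

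The neutrophil label was likewise borne out only in part. The 7 neutrophil markers summed to 28.6 per 10000 (18.8 to 38.0 between libraries), but the 7 monocyte/macrophage markers to 89.6 (67.6 to 115), near the 100.3 of early monocyte barcodes, and none of either list was at 0. Most of the 89.6 came from Lyz2 (53.4) and Cd14 (11.9), and their cell of origin was not tested. Csf1r and Adgre1 were at 3.02 and 2.74, against 3.35 and 2.04 in early monocyte barcodes. Macrophage transcripts were also present in pDC barcodes (59.5, 33.1 to 84.8), above the 40.6 of the 6 pDC markers there, and in dendritic barcodes (34.8, 13.6 to 59.3), above the 14.8 of the 8 dendritic cell markers there, against 2.47 (1.16 to 4.04) in lymphocyte barcodes, where Csf1r and Adgre1 were at 0 by the rule. Of these classes, 23 neutrophil, 64 dendritic and 45 pDC barcodes had no Csf1r or Adgre1 UMI and C1q genes below 5 per 10000, and results for these classes are given with and without the others. Library totals ran from 11492757 to 33902084 UMIs, 16 barcode sequences occurred in more than 1 library, and 191 of the 331 Cd163-positive barcodes came from suffix 5. Median depth differed between classes, from 5833 UMIs per barcode in Cd163-positive and 6845 in lymphocyte to 16032 in C1q-high and 25174 in mixed lymphocyte-myeloid barcodes.

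Together the 34 genes took 2.53% of all UMIs, 3550043 of 140562949. Myeloid classes devoted between 246 and 316 of every 10000 UMIs to them, and lymphocyte barcodes 41.0 (40.5 to 41.5). The level in lymphocyte barcodes ran from 35.0 to 47.8 between libraries with a median of 42.1, and in each library it was below every myeloid class. Among the myeloid classes Cd163-positive barcodes had 316 (5 libraries, 283 to 357), Mmp12-positive 306 (highest library 380), C1q-high 294 (279 to 336), Ly6c2 286 (220 to 341), neutrophil 283 (267 to 295), pDC 256 (3 libraries, 236 to 283), early monocyte 248 (212 to 291) and dendritic 246 (3 libraries, 216 to 260). The ranges of neighbours in the order overlapped. The 3 libraries with at least 20 dendritic barcodes lay below all such libraries of neutrophil, C1q-high, Mmp12-positive and Cd163-positive barcodes. Suffixes 3, 6 and 7, with only 10, 15 and 11 dendritic barcodes, had 315, 264 and 287 in that class. Without the barcodes that carried macrophage transcripts, the levels were 263 in neutrophil, 227 in dendritic and 182 in pDC barcodes. The library with suffix 6 was the highest in early monocyte, Ly6c2, C1q-high, Mmp12-positive and neutrophil barcodes, and the lowest in Cd163-positive barcodes. C1q-high exceeded early monocyte barcodes in 6 of 6 libraries, at a ratio of 1.19 (95% exact binomial interval 1.18 to 1.19) over all barcodes and of 1.15 to 1.33 between libraries. Neutrophil barcodes did so as well in 6 of 6 libraries, at 1.14 (1.01 to 1.26 between libraries).

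**Figure D1:**
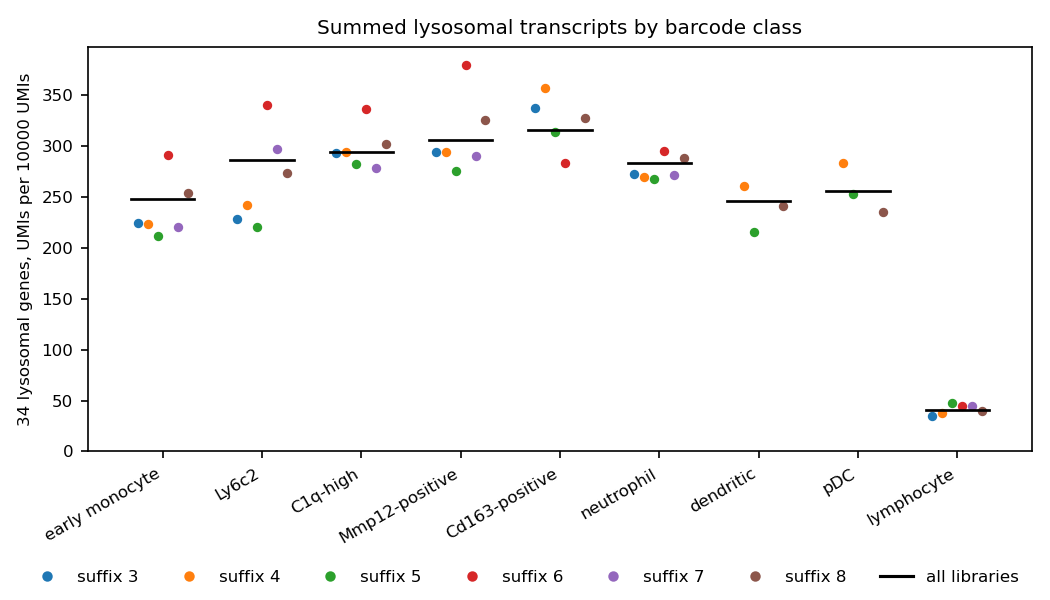
Summed level of the 34 lysosomal genes in UMIs per 10000 UMIs (vertical axis) for each barcode class (horizontal axis); points are libraries with at least 20 barcodes of the class and black lines the value over all libraries. Lymphocyte barcodes sit between 35.0 and 47.8, far below all other classes, and dendritic libraries lie below those of neutrophil, C1q-high, Mmp12-positive and Cd163-positive barcodes.

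The transcripts were unevenly shared. The 9 cysteine proteases made up 48.4% of the lysosomal UMIs of C1q-high barcodes, and the 3 sterol or lipid transfer genes came next at 57.4 per 10000. Prosaposin (Psap), the precursor of the saposins that help enzymes to reach sphingolipids, was the most abundant member in C1q-high barcodes at 39.8 per 10000 (36.6 to 53.8 between libraries, median 39.0). It was followed by the cathepsin B gene Ctsb (33.7, 26.8 to 40.7), Lgmn, which encodes the asparaginyl endopeptidase legumain (28.3, 24.2 to 38.2), the cathepsin S gene Ctss (26.8, 21.8 to 31.8) and Ctsc, whose product activates granule serine proteases (25.9, 19.7 to 28.6). The range of Psap overlapped that of Ctsb and of Lgmn, and those from Ctsb to Ctsc overlapped one another. Glycosidases were far lower, at 9.90 per 10000 for all 7 together, of which Hexa, a subunit of the hexosaminidase that cuts gangliosides, gave 4.60. The genes with the fewest transcripts in C1q-high barcodes were Ctsk, the collagen-degrading cathepsin K of osteoclasts, at 0.0781, Ctse (0.0583), Atp6v0d2 (0.0301) and Ctsw (0.0218).

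Which class was highest differed from gene to gene. Lymphocyte barcodes were the lowest of the 9 named classes for 28 of the 34 genes. The highest level was in Cd163-positive barcodes for 9 genes, in C1q-high and in Mmp12-positive barcodes for 6 each, in Ly6c2 and in pDC barcodes for 4 each, in neutrophil and in dendritic barcodes for 2 each, and in lymphocyte barcodes for 1. No gene was highest in early monocyte barcodes. Many of these leads were small, such as 28.1 per 10000 in Ly6c2 against 26.8 in C1q-high barcodes for Ctss, and 48.6 in Mmp12-positive against 46.3 in pDC barcodes for Psap. The leads of Ctsl, Ctsw and Atp6v0d2 held in 6 of 6 libraries those of Ctsb, Lgmn and Lamp1 in 5 of 5 with enough barcodes, and those of Cst3, Ctse, Ctsh and Npc1 in 3 of 3. Members not described further below followed the same broad order. Ctsz, the carboxypeptidase cathepsin Z, was between 5.57 and 10.7 per 10000 in the myeloid classes and at 0.765 in lymphocyte barcodes. Npc2, which hands cholesterol to NPC1, was between 14.1 and 22.4 and at 3.38, Laptm4a between 1.39 and 2.71 and at 0.836, and the pump accessory gene Atp6ap1 between 0.873 and 1.98 and at 0.415. Mcoln1, a calcium channel gene of the lysosome, was sparse, between 0.140 and 0.201 and at 0.0676.

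**Figure D2:**
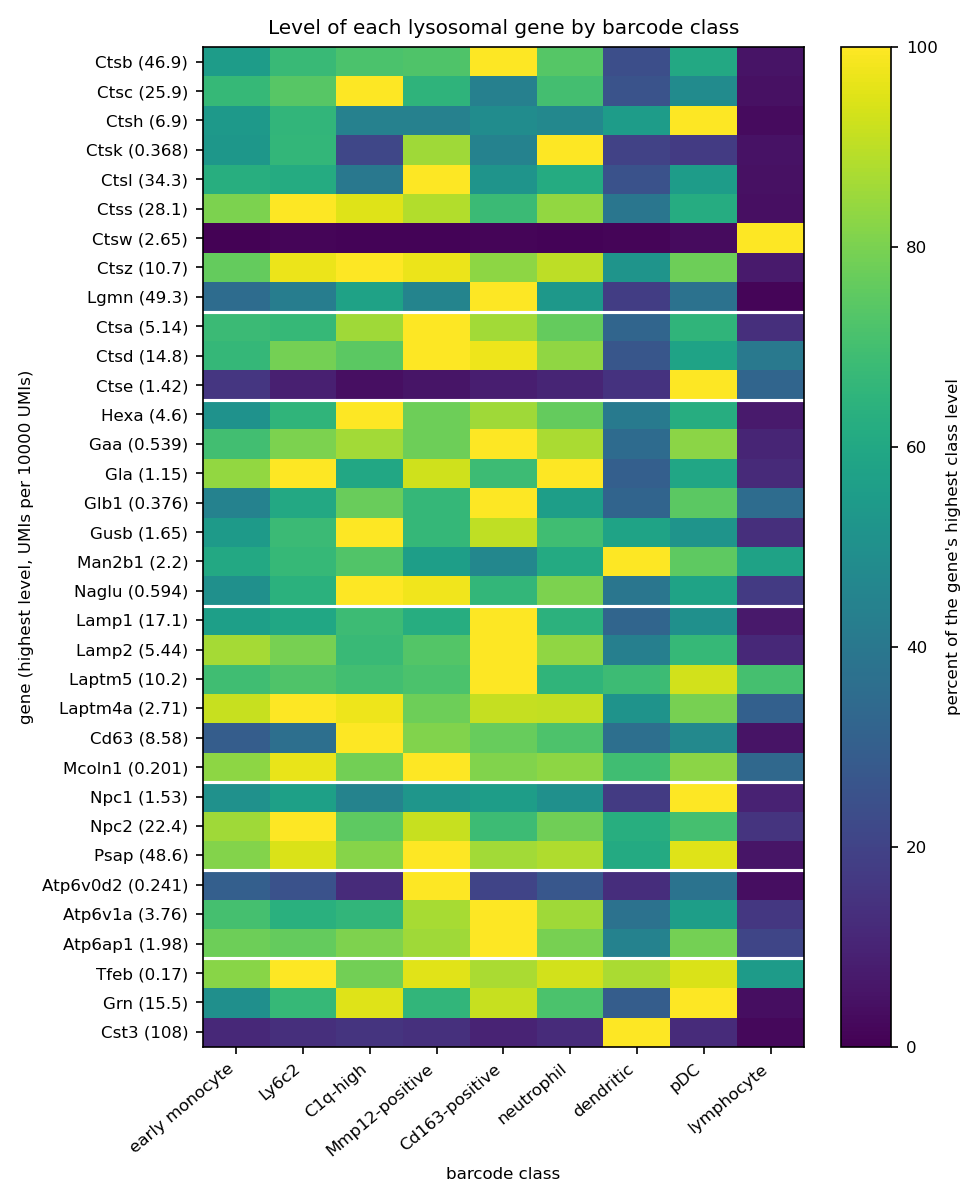
Level of each of the 34 genes (rows, grouped by role with white lines between proteases, glycosidases, membrane, transfer, proton pump and regulator or inhibitor genes) in 9 barcode classes (columns), as percent of the gene's highest class, whose level in UMIs per 10000 UMIs stands in parentheses. Cst3 (108, dendritic), Ctsw (2.65, lymphocyte) and Ctse (1.42, pDC) are concentrated in 1 class, whereas Laptm5 and Tfeb are spread over all.

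To ask how the genes differ between 1 macrophage and 1 monocyte class of the tumor, C1q-high barcodes were set against early monocyte barcodes. Ly6c2 barcodes, at a summed level of 286 against 294 in C1q-high barcodes, were not compared. Among barcodes that met no rule before C1q-high, the summed level was 309 with C1q genes at 40 to 60 per 10000 and 289 at 60 to 80. A gene was counted as passing when the pooled levels differed at least 2-fold and every library with at least 20 barcodes of both classes lay on the same side, among genes with a mean of at least 10 CPM, that is UMIs of a gene per 1000000 UMIs. Of the 34 genes 32 reached that mean, and Ctsw and Atp6v0d2 did not. One passed as higher, where 4.49% of all 7388 genes did, and 1 passed as lower, where 4.29% did, so that both counts were near the background. The gene that passed as higher was Cd63, a tetraspanin of late endosomes and lysosomes that is also a common exosome marker. Its level in C1q-high barcodes was 8.30, 8.70, 7.61, 7.99, 9.15 and 8.73 per 10000 in suffixes 3 to 8, with a median of 8.50. In early monocyte barcodes the corresponding levels were 2.83, 2.58, 2.58, 3.31, 1.51 and 2.38. The libraries of the 2 classes did not overlap, and the ratio was 3.39 (3.27 to 3.51), from 2.41 to 6.07 between libraries. When a barcode could belong to several classes, Cd63 did not pass.

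Of the genes that did not pass, 6 had ratios from 1.63 to 1.99 and lay above 1 in 6 of 6 libraries, a number not set against that of all genes. Naglu, which encodes a glucosaminidase that acts on heparan sulfate, had a ratio of 1.99 (1.68 to 2.96 between libraries). Hexa had 1.95 (1.80 to 2.18), and its levels did not overlap, at 4.23 to 5.08 per 10000 in C1q-high against 2.05 to 2.56 in early monocyte barcodes. The progranulin gene Grn, whose product is a growth factor precursor that is cut into granulins in the lysosome, had 1.92 (1.82 to 2.14), with 13.4 to 16.5 against 6.42 to 9.04 per 10000. The glucuronidase gene Gusb had 1.83 (1.65 to 2.01), the galactosidase gene Glb1 1.74 (1.45 to 2.83) and Lgmn 1.63 (1.26 to 2.21). In barcodes of 8000 to 12000 UMIs, a depth window chosen after seeing the data, Lgmn, Hexa, Naglu and Grn also passed, as did Naglu and Grn without suffix 6, Naglu without suffix 3 or 8 and Hexa without suffix 4.

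The gene that passed as lower was Ctse, which encodes the aspartic protease cathepsin E. It reached the mean of 10 CPM only through the early monocyte class, so that a gene at its level had to differ in order to be counted. It was sparse in both classes, at 0.0583 per 10000 in C1q-high and 0.224 in early monocyte barcodes, 3.85-fold lower in the former (3.18 to 4.67, and 1.51 to 9.35 between libraries). Ctsl, the gene of the endopeptidase cathepsin L, was lower in C1q-high barcodes in 6 of 6 libraries without reaching 2-fold, at a ratio of 0.638 (0.552 to 0.979 between libraries). Ctsk was at 0.0781 against 0.195 per 10000, a ratio of 0.401 (0.334 to 0.481), but above 1 in suffix 5. It passed as lower without that library, and like Ctse it reached the mean only through the early monocyte class. Psap and Laptm5, a lysosomal membrane protein of blood cells, had ratios of 1.01 (0.996 to 1.02) and 1.0 (0.976 to 1.03) over all barcodes. Within libraries Psap was above 1 in 5 of 6, up to 1.33, and at 0.988 in suffix 7, and Laptm5 was above 1 in 2 of 6. Over the 32 genes the median ratio was 1.15, and over all genes 1.05. Of 56 other lysosomal genes 51 reached the mean, and 2 passed as higher, among them Acp5, an acid phosphatase gene of osteoclasts and macrophages, at 2.39 (2.09 to 2.75).

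**Figure D3:**
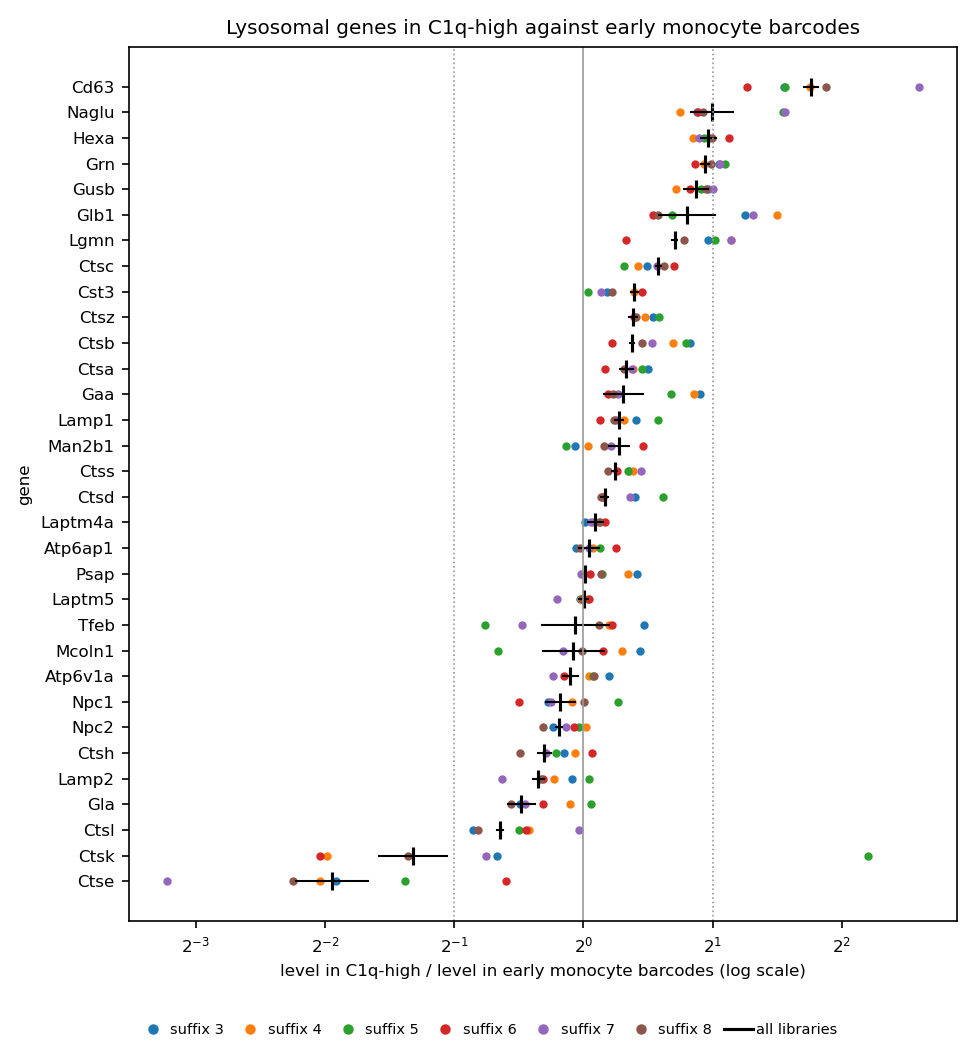
Ratio of the level in C1q-high to that in early monocyte barcodes on a log scale (horizontal axis) for the 32 genes with a mean of at least 10 CPM (vertical axis); points are libraries, black ticks the value over all libraries with 95% exact binomial intervals, and dotted lines 2-fold. Cd63 lies at 3.39 and Ctse at 0.260, with all libraries on the same side of 1.

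Mmp12-positive barcodes, marked by a macrophage elastase, had nearly the same summed level as C1q-high barcodes (ratio 1.04, above 1 in 4 of 6 libraries), but 2 of the 32 genes passed as higher, where 2.95% of all genes did, and 0 as lower, where 2.46% did. Ctsl was at 34.3 per 10000 in Mmp12-positive barcodes, with 30.9, 32.8, 23.3, 52.5, 32.2 and 38.5 in suffixes 3 to 8. In C1q-high barcodes the same libraries had 10.5, 14.3, 9.78, 20.8, 14.2 and 13.9. Both classes were highest in suffix 6, the libraries of the 2 classes did not overlap, and the ratio was 2.5 (2.46 to 2.53), from 2.27 to 2.93 between libraries. In the sum over libraries Ctsl had nearly the level of Ctsb in this class, and the libraries of both genes overlapped. Atp6v0d2, a proton pump subunit typical of osteoclasts and some macrophages, was 8.01-fold higher (6.26 to 10.3), but sparse, at 0.241 per 10000 (226 UMIs) against 0.0301 (91 UMIs), and its ratio ran from 3.48 to 19.1 between libraries. It reached the mean of 10 CPM through Mmp12-positive barcodes alone, and it did not pass with the Cd163 and Mmp12 rules at 1 UMI. Ctsk was 4.05-fold higher (3.4 to 4.82), at 0.316 against 0.0781 per 10000, but below 1 in suffix 5. It passed without that library, and like Atp6v0d2 it reached the mean only through Mmp12-positive barcodes. Atp6v1a, the catalytic subunit of the pump, differed less, at 3.26 against 2.47 per 10000. Of the 56 other lysosomal genes, 51 reached the mean and 0 passed in either direction.

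Cd163-positive barcodes, marked by the scavenger receptor for haptoglobin-hemoglobin, had 1 of 31 tested genes lower than C1q-high barcodes by this rule, where 3.02% of all genes were, and 0 higher, where 3.48% were. The gene was Ctsc. Its level was 17.2, 14.3, 9.01, 7.27 and 17.0 per 10000 in Cd163-positive barcodes of suffixes 3, 4, 5, 6 and 8, against 22.5, 26.6, 19.7, 25.6 and 27.4 in C1q-high barcodes. The libraries did not overlap, and the level was 2.29-fold lower (2.21 to 2.37), from 1.31 to 3.53 between libraries. Ctsc did not pass with the Cd163 and Mmp12 rules at 1 UMI. Lgmn and Ctsb went the other way without reaching 2-fold. Lgmn was at 50.2, 43.2, 53.2, 47.3 and 43.9 per 10000 in the same libraries of Cd163-positive barcodes, all above the 24.2 to 38.2 of C1q-high barcodes, with a ratio of 1.74 over all barcodes and of 1.39 to 1.71 within libraries. Ctsb had a ratio of 1.39 (1.12 to 1.73), Lamp1 of 1.46 (1.06 to 1.5), Lamp2, whose product also serves in autophagy, of 1.47 (1.10 to 1.76) and Atp6v1a of 1.52 (1.31 to 1.63), each above 1 in 5 of 5 libraries. Lamp1 was highest in suffix 5 in both classes, at 14.9 per 10000 in C1q-high barcodes. Without suffix 5, which gave most Cd163-positive barcodes, 3 genes passed, Ctsk as higher and Cst3 as well as Ctsc as lower, and Ctsk reached the mean only through the Cd163-positive class. Of the other lysosomal genes 2 passed as higher, the cystine transporter gene Ctns at 2.57 (2.01 to 3.25) and the pump subunit gene Atp6v0a1 at 2.26 (2.03 to 2.51), and 2 as lower, among them Igf2r, which encodes a receptor that sorts enzymes to lysosomes, 2.51-fold (1.86 to 3.47).

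**Figure D4:**
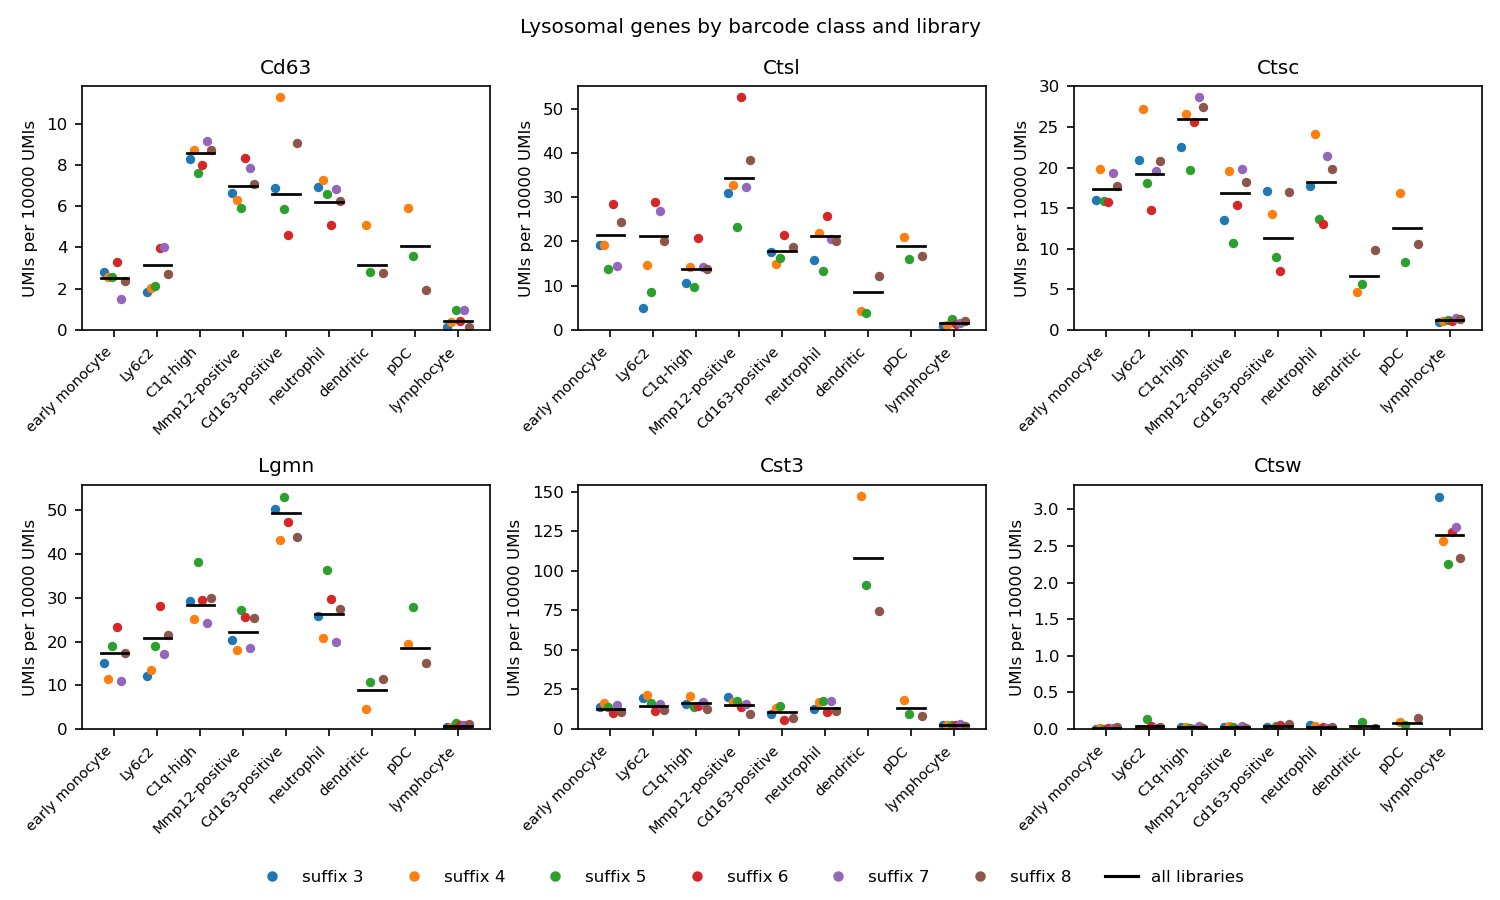
Level of 6 genes in UMIs per 10000 UMIs (vertical axes) in 9 barcode classes (horizontal axes); points are libraries with at least 20 barcodes of the class and black lines the value over all libraries. Ctsl is highest in Mmp12-positive, Lgmn in Cd163-positive, Cst3 in dendritic and Ctsw in lymphocyte barcodes, and Cd63 is between 1.51 and 3.31 in early monocyte barcodes.

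Neutrophil barcodes, which carried macrophage transcripts as described, differed from early monocyte barcodes in 1 gene, Cd63, which passed as higher where 1.41% of all genes did, and 0 genes passed as lower, where 0.452% did. Cd63 was at 6.20 per 10000 (5.09 to 7.26 between libraries, median 6.72) against 2.53, a ratio of 2.45 (2.35 to 2.55), and it did not pass when a barcode could belong to several classes. C1qa stood at 24.6 per 10000 in these barcodes against 3.92 in early monocyte barcodes, and its part in the result was not tested. In the 23 neutrophil barcodes without macrophage transcripts, Cd63 was at 5.56 per 10000 and Ctsc at 8.09 against 18.2 in all neutrophil barcodes. These barcodes were spread over 6 libraries with at most 8 in any, so that no library could be read alone. Their monocyte/macrophage markers still summed to 47.6 per 10000, with only Csf1r and Adgre1 at 0. Most of that sum came from Cd14 (18.1) and Lyz2 (16.4), while C1qa was at 0.385.

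Dendritic barcodes had nearly the same summed level as early monocyte barcodes, at a ratio of 0.994 (0.985 to 1.0), but of different composition. The 3 libraries with enough barcodes of both classes, suffixes 4, 5 and 8, had ratios of 1.17, 1.02 and 0.951. The 1 gene that passed as higher, where 7.87% of all genes did, was Cst3, which encodes cystatin C, a secreted inhibitor of cysteine cathepsins. It was at 147, 91.4 and 74.3 per 10000 in these libraries and 108 over all, against 16.1, 13.6 and 10.7 in early monocyte barcodes, 8.69-fold higher (8.51 to 8.86). No library of any other named class reached the lowest of these values. The 8 genes that passed as lower, where 8.63% of all genes did, were the cathepsin genes Ctsb, Ctsc, Ctsl, Ctss, Ctsa and Ctsd, Gla, the galactosidase gene of Fabry disease, and Npc1, which encodes the membrane protein that moves cholesterol out of the lysosome. Their fold differences ran from 2.06 for Ctss (1.97 to 2.14) to 2.91 for Npc1 (2.23 to 3.85). None of the 8 passed when a barcode could belong to several classes. Of the 19 alternatives in which libraries could be compared, Ctss and Ctsa passed in 12, Ctsb and Ctsd in 16, and Ctsc, Ctsl, Gla and Npc1 in 17. Ctss did not pass without suffix 5 or 6, nor Ctsa without suffix 4 or 6. Both also failed with C1q-high at 80 per 10000 and without mitochondrial and ribosomal protein genes in the denominator. Ctss, Ctsa, Ctsb and Ctsd failed with mixed lymphocyte-myeloid barcodes kept in their other class. The 9 cysteine proteases summed to 56.0 per 10000 in dendritic barcodes and to 117 in early monocyte barcodes. Man2b1, a lysosomal mannosidase gene, stood at 2.20 per 10000 in dendritic barcodes, above the 1.33 of early monocyte barcodes. Of 52 other lysosomal genes, 2 passed as higher and 9 as lower, and the leading ones were Laptm4b, a paralog of Laptm4a, at 9.37 (6.12 to 14.5) and Arsb, a sulfatase gene, at 6.56 (5.40 to 7.97).

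Without the dendritic barcodes that carried macrophage transcripts the composition moved further in the same direction. In the 64 others Cst3 was at 150.2 per 10000, Ctsb at 1.53, Ctsl at 0.479, Lgmn at 1.53 and Ctsd at 0.266, against 11.3, 8.68, 8.90 and 3.99 in all dendritic barcodes for the last 4. Ctsh, the aminopeptidase cathepsin H, and Cd63 moved little, at 4.23 and 2.98 against 3.80 and 3.14. The 8 dendritic cell markers summed to 25 per 10000 in these barcodes and to 14.8 in all dendritic barcodes, and the monocyte/macrophage markers to 5.09. Only suffix 5, with 22, held at least 20 of them.

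pDC barcodes differed from dendritic barcodes in 10 of 31 genes, with 9 higher, where 8.63% of all genes were, and 1 lower, where 5.09% were. The ratio of the summed levels was 1.04, and 1.09, 1.17 and 0.976 in suffixes 4, 5 and 8, but 0.803 between the barcodes of both classes without macrophage transcripts. Ctse was at 1.42 per 10000 (308 UMIs), at 1.16, 1.69 and 1.85 in these libraries against 0.230, 0.315 and 0.0910 in dendritic barcodes, 6.84-fold higher (5.00 to 9.54). Npc1 was at 1.63, 1.52 and 1.70 against 0.202, 0.288 and 0.182, 5.75-fold higher (4.35 to 7.71). Grn was at 16.7, 16.5 and 14.8 against 2.65, 4.25 and 6.66, 3.41-fold higher (3.17 to 3.66). For each of these genes the libraries of the 2 classes did not overlap. Cst3 was 8.18-fold lower (7.86 to 8.50). The other 6 genes higher in pDC barcodes, Ctsb, Ctsl, Lgmn, Ctsa, Ctsd and the glucosidase gene Gaa, differed by 2.01 to 2.51-fold. Between the barcodes of both classes without macrophage transcripts, Lgmn was no longer higher in pDC barcodes, and Gla and Cd63 were at least 2-fold lower. Ctsb, Ctsl, Ctsa, Ctsd and Gaa were at least 2-fold higher there, in pooled levels alone. Without suffix 4, 6 genes passed, Ctsb, Ctse, Gaa, Npc1 and Grn as higher and Cst3 as lower. Ctsa passed in 9 and Lgmn in 12 of the 18 alternatives in which libraries could be compared, and with overlapping classes only Ctse, Npc1 and Cst3 passed. Of 53 other lysosomal genes, 11 passed as higher, led by the cathepsin gene Ctso at 4.93 (3.39 to 7.35), and 2 as lower, Arsb and the thioesterase gene Ppt1.

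The 45 pDC barcodes without macrophage transcripts split these genes. Ctse was at 3.02 per 10000 (2.45 to 3.68), Ctsh at 13.5 (12.3 to 14.8), Npc1 at 2.37 (1.87 to 2.96) and Grn at 17.1 (15.7 to 18.6), each at or above the 1.42, 6.90, 1.53 and 15.5 of all pDC barcodes. Psap and Ctsl stayed near their levels, at 44.8 and 16.0 against 46.3 and 18.9. Lgmn was at 1.2 against 18.5, Ctsd at 1.35 against 8.64, Ctsc at 3.08 against 12.5, and Cd63 at 0.0924 (3 UMIs) against 4.05. Ctsb lay between, at 14.8 against 28.3. The 6 pDC markers summed to 101 per 10000 in these barcodes and to 40.6 in all pDC barcodes, and the monocyte/macrophage markers to 7.17 and 59.5. The 45 barcodes were shallower, with a median of 6948 UMIs against 12569, and had at most 10 in any library. Ctse was above 1.5 per 10000 in each of the 6 libraries, from 1.52 to 4.05.

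**Figure D5:**
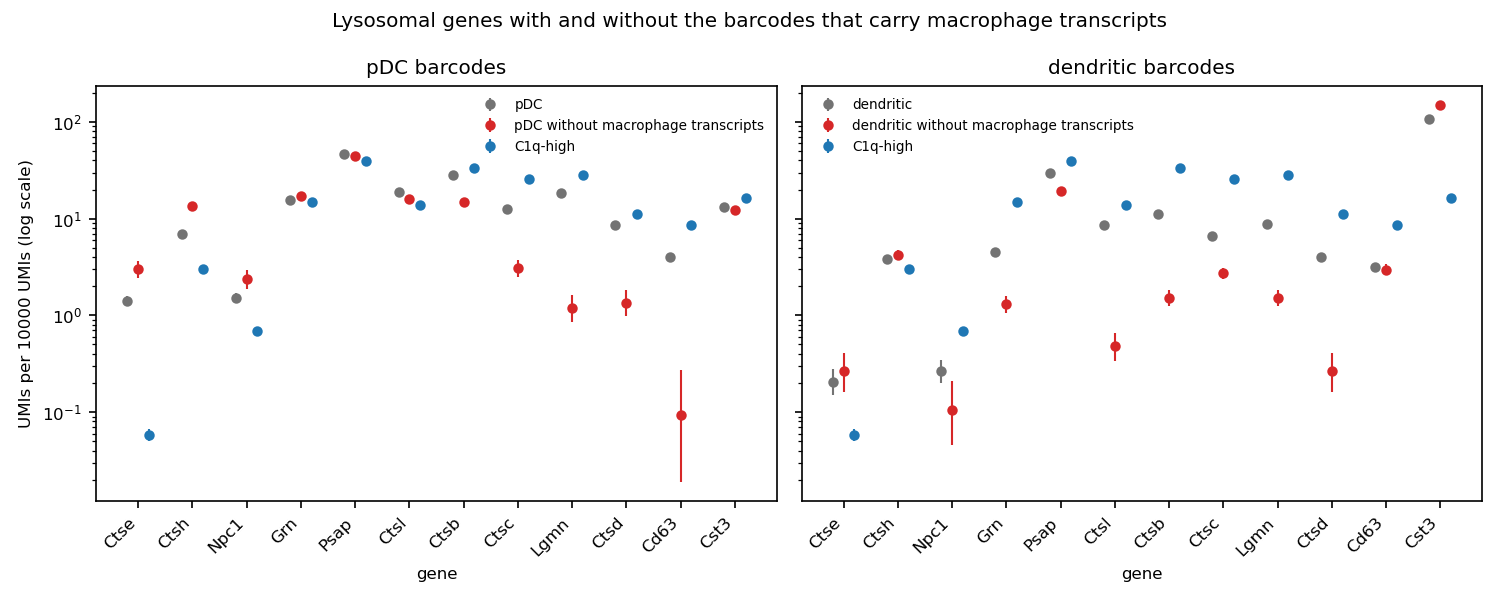
Level of 12 genes in UMIs per 10000 UMIs on a log scale (vertical axes) in all pDC or dendritic barcodes (grey), in those without macrophage transcripts (red) and in C1q-high barcodes (blue), with 95% exact Poisson intervals. In pDC barcodes Ctse, Ctsh and Npc1 are higher in red than in grey, whereas Lgmn is at 1.2 against 18.5 and Cd63 at 0.0924 against 4.05.

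Lymphocyte barcodes stood apart from C1q-high barcodes in most genes. The summed level was 7.18-fold higher in C1q-high barcodes (7.09 to 7.28), from 5.90 to 8.38 between libraries. Of 32 genes 26 passed as higher in C1q-high barcodes, where 17.4% of all genes did, and 2 as lower, where 12.6% did. Of these 28, Ctsw, Ctse, Gaa and Mcoln1 reached the mean of 10 CPM only through the class where they were higher. The ratios of the 26 ran from 2.18 for Glb1 to 37.7 for Lgmn (34.2 to 41.6), with Grn at 25.7 and Ctss at 23.7, and the median over the 32 genes was 6.12 against 0.973 over all genes. Of 49 other lysosomal genes 36 passed as higher, led by Slc11a1, a metal transporter gene of phagosomes, at 40.6 (25.3 to 69.7) and Cd68 at 21.3 (18.3 to 25), and 1 as lower, Arsb, 6.31-fold (5.67 to 7.03). Lyz2, a macrophage gene that lymphocytes should lack, was at 1.09 per 10000 in lymphocyte and 69.7 in C1q-high barcodes. The part of free RNA in the lymphocyte levels was not tested. When mixed lymphocyte-myeloid barcodes were counted as lymphocytes too, their summed level was 201 per 10000 and 2 genes passed instead of 28.

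Ctsw, whose product cathepsin W is stored in cytotoxic lymphocytes, was one of the 2 genes lower in C1q-high barcodes. It was at 3.17, 2.57, 2.25, 2.69, 2.76 and 2.34 per 10000 in lymphocyte barcodes of suffixes 3 to 8 and at 0.0351 or less in C1q-high barcodes of any library, a difference of 121-fold (94.7 to 158). By lymphocyte type it was at 3.72 (3.47 to 3.99) in 242 NK barcodes, 1.74 (1.58 to 1.91) in 274 T barcodes and 0.727 (0.363 to 1.3, 11 UMIs) in 32 B barcodes. These B barcodes also carried T cell markers at 8.79 and NK cell markers at 6.61 per 10000, beside B cell markers at 41.8, and the part of these in the Ctsw level was not tested. NK barcodes exceeded T barcodes in the sum and in each library, though suffix 5 had only 15 NK barcodes. Ctse was the other gene, at 0.462 per 10000 in lymphocyte barcodes (0.292 to 0.872 between libraries), 7.93-fold above C1q-high barcodes (6.52 to 9.67).

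The other 4 tested genes, Ctsd, Laptm5, Man2b1 and Tfeb, did not pass. Ctsd, the gene of the aspartic protease cathepsin D, was at 6.0 per 10000 in lymphocyte barcodes (4.31 to 6.76 between libraries, median 5.65) against 11.1 in C1q-high barcodes, a ratio of 1.85 (1.79 to 1.92). It was at 7.93 (7.57 to 8.32) in NK and 4.78 (4.52 to 5.05) in T barcodes, and was thereby the second most abundant member in lymphocyte barcodes after Laptm5. Laptm5 was at 7.21 in lymphocyte barcodes (6.29 to 8.53) and 7.12 in C1q-high barcodes (6.03 to 9.25), and the ranges overlapped. Its level varied only from 6.69 to 10.2 over the 9 classes. Man2b1 was at 1.27 against 1.61 per 10000, and its highest class, dendritic, had 2.20. Tfeb was between 0.0931 and 0.170 per 10000 in all 9 classes, with 51 UMIs in lymphocyte and 405 in C1q-high barcodes.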

How the data were processed

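CD45 positive cells of 6 CT26 tumors were profiled with a 10x 3′ kit, and the authors deposited raw UMI counts, without normalization, in 1 matrix. The submitters' processing notes name Cell Ranger 1.2, Seurat 3.1.5, R 4.0.1 and mm10 without their roles, and the filter on barcodes is not given in the sources used here. Filters or a reference applied before deposit could change which barcodes and reads were counted. No barcode had more than 9.99% mitochondrial UMIs. Barcode suffixes match no label, so each was taken as 1 library of unknown treatment. No test between classes or treatments was run, and no doublet caller was used. The members, lists and class rules were chosen with earlier results of these data known. All 34 members are named, with the other lysosomal genes by count and some of the leading ratios, and not every gene that passed is reported here. UMIs were summed per class with Python 3.11.15, numpy 2.4.6 and scipy 1.17.1. A fold of 2 and a mean of 10 CPM in libraries with at least 20 barcodes defined a gene that passed. Counts were simulated for C1q-high against early monocyte barcodes by Poisson draws from 1 profile shared by all libraries. In these, 100 of 100 genes made 4-fold higher passed. Of 100 made 4-fold lower, 90 still reached the mean and 90 passed, while 0 of 7218 unchanged genes did. The draws held no difference between libraries or barcodes beyond counting error. They therefore check the rule on such counts only and give no error rate for the real libraries. Alternatives changed the class rules, depth, denominator, fold and filter and left out each library.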

Additional observations from a re-analysis of the deposited data

Results flagged for a closer look

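Levels of each gene in C1q-high and Mmp12-positive barcodes, and the summed levels and ratios, were searched for a library far from the others by the ratio of its gap to the range (Dixon). Of 81 sets of libraries 9 held such a library, and the treatment of each library is unknown. The limit used marks about 1 in 20 sets by chance where values are normal. These sets reuse the same 6 libraries and include sparse genes, so that no excess over chance can be read from the 9. In C1q-high barcodes suffix 5 was highest for Ctsk, at 0.276 per 10000 against 0.0173 to 0.0990 in the others, for Gusb, at 2.34 against 1.46 to 1.66, and for Lamp1, at 14.9 against 10.8 to 11.8. Suffix 6 was highest for Atp6v0d2, at 0.163 against 0.0104 to 0.0417. In Mmp12-positive barcodes suffix 6 was highest for Ctsk, at 1.01 against 0.105 to 0.354, for Psap, at 73.9 against 41.6 to 51.0, and for Atp6v0d2, at 0.568 against 0.145 to 0.293. Suffix 5 was highest for Gusb, at 1.48 against 0.920 to 1.11, and suffix 4 for Man2b1, at 1.68 against 1.06 to 1.25. The cause was not tested.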

How the results depend on the processing

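No paired analysis was possible because barcodes cannot be assigned to tumors and so to the replicate numbers of the labels (classes were compared within libraries instead), and the alternatives meant for the comparison of treatments were not run for the same reason. Of 479 summed levels, ratios and counts under 23 alternatives, 397 stayed within the spread between libraries or within 1.5 times the count. Limits are the small pDC, dendritic and Cd163-positive classes, macrophage transcripts in several classes and depth that differs between classes. The cause of the changes below was not tested. The ratio of dendritic to early monocyte barcodes, 0.994, crossed 1 at 1.04 with mixed barcodes kept, 1.01 with C1q-high at 80 per 10000, 1.01 with Cd163 and Mmp12 at 1 UMI, 1.0 without the highest 5% of UMIs, 1.06 without mitochondrial and ribosomal protein genes in the denominator, 1.02 as the median of libraries and 1.04 without Psap. With each library left out it was 0.958 to 1.04. That of pDC to dendritic barcodes, 1.04, crossed 1 at 0.998 with overlapping classes, 0.994 at 1000 UMIs per barcode, 0.969 without Psap, 0.803 without macrophage transcripts and 0.913 at 8000 to 12000 UMIs (the last 2 chosen after seeing the data), and was 0.984 to 1.07 with each library left out. C1q-high against early monocyte became 1.29 as the mean over barcodes, the median of libraries and at 1000 UMIs. C1q-high against lymphocyte became 5.81 with the lymphocyte gate at 1 UMI and 1.38 with mixed barcodes kept. Summed levels with the gate at 1 UMI were 50.6 (lymphocyte) and 231 (mixed), and with mixed barcodes kept 229.9 (Ly6c2), 258 (neutrophil) and 201 (lymphocyte). Without mitochondrial and ribosomal protein genes they were 353 (C1q-high), 362 (Mmp12-positive), 366 (Cd163-positive), 285 (early monocyte), 329.8 (neutrophil), 304 (dendritic), 311 (pDC), 55.7 (lymphocyte) and 271 (mixed). Without Psap they were 255, 258, 274, 208, 241, 217, 209.8 and 188 (mixed), in that order but for lymphocyte. As the mean over barcodes Cd163-positive had 343. Without macrophage transcripts neutrophil had 263 and pDC 182, and at 8000 to 12000 UMIs neutrophil, dendritic and pDC had 299, 219 and 200. The 2 members that passed in C1q-high against early monocyte became 1 with overlapping classes, 5 with C1q-high at 40, 4 with the other denominator, 6 at 1000 UMIs, 9 at 1.5-fold, 6 at 8000 to 12000 UMIs and 2 to 4 with each library left out, 4 without suffix 6. The 28 against lymphocyte became 2 with mixed barcodes kept. The 2 in Mmp12-positive against C1q-high became 1 with Cd163 and Mmp12 at 1 UMI, 5 at 1.5-fold and 1 at 3-fold. The 1 in Cd163-positive against C1q-high became 0 with Cd163 and Mmp12 at 1 UMI, 3 at 1.5-fold, 0 at 3-fold, 2 at 8000 to 12000 UMIs and 1 to 3 with each library left out, 3 without suffix 5. The 1 in neutrophil against early monocyte became 0 with overlapping classes, 2 at 1.5-fold, 0 at 3-fold, 8 without macrophage transcripts and 2 at 8000 to 12000 UMIs. The 9 in dendritic against early monocyte became 2 with overlapping classes, 5 with mixed barcodes kept, 14 with Cd163 and Mmp12 at 1 UMI, 18 at 1.5-fold, 1 at 3-fold, 21 without macrophage transcripts and 15 at 8000 to 12000 UMIs. The 10 in pDC against dendritic became 3 with overlapping classes, 18 at 1.5-fold, 4 at 3-fold and 6 to 13 with each library left out, 6 without suffix 4. No library held 20 barcodes of both classes without macrophage transcripts for neutrophil and pDC, or at 8000 to 12000 UMIs for dendritic and pDC, so that those counts rest on pooled folds alone and are not comparable with the others. Where at least 1 library was compared, Cst3, Npc1 and Ctse in pDC against dendritic passed under all 18 alternatives, and Cd63 in C1q-high against early monocyte under 19 of 20, all but overlapping classes.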
